A study of Mus musculus with 20 samples.

Results

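The genes described here encode the proteasome, the protein-degrading machine of the cell, together with its activators, its assembly chaperones and the inducible subunits of the immunoproteasome. They were taken as every row of the count table whose symbol begins with Psma, Psmb, Psmc, Psmd, Psme, Psmf or Psmg followed by a digit, which gave 50 of 21963 rows; no row had to be left out for carrying -ps in its name. Psmb8, Psmb9, Psmb10, Psme1 and Psme2 were set apart as the immunoproteasome class. Of the other 45 genes, 31 encode standard subunits of the core and regulatory particles and 7 encode assembly chaperones. Psma8 and Psmb11 are tissue-restricted core subunits, Psme2b, Psme3, Psme4 and Psmf1 are further activators or regulators, and Psmc3ip is named after a subunit but encodes a meiotic recombination factor.

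The measurements are bulk RNA-seq counts from bone-marrow-derived macrophages (BMDMs), which were grown from mouse marrow in L929-conditioned medium for 7 days and used 9 to 14 days after harvest. Mice were 15 to 25 weeks old, and Mcu-/- BMDMs came from animals with a floxed Mcu gene and Cx3cr1-cre, so that deletion depends on a promoter of the myeloid lineage. Mcu encodes the pore of the mitochondrial calcium uniporter. The 20 libraries formed 5 groups: WT untreated (n = 4), WT with zymosan for 3 h (n = 5), WT with zymosan for 3 h and 10 µM BAPTA-AM (n = 4), Mcu-/- untreated (n = 4) and Mcu-/- with zymosan for 3 h (n = 3). Zymosan is a yeast cell wall particle sensed by Toll-like receptor and dectin receptors, and BAPTA-AM is a cell-permeant chelator that clamps cytosolic Ca2+. The labels call the samples biological replicates without tying them to animals.

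The proteasome is a barrel of alpha and beta rings, the core particle, capped by a regulatory particle whose ATPase base unfolds substrates and whose lid removes ubiquitin. In its constitutive form the catalytic beta subunits are Psmb5, Psmb6 and Psmb7. Interferons and inflammatory stimuli induce Psmb8, Psmb9 and Psmb10, which are built into new particles in their place, and Psme1 and Psme2, which together form the PA28 cap. The resulting immunoproteasome is best known for shaping the peptides presented on MHC class I, and macrophages carry both forms.

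Psmb8 (chromosome 17, 34197721 to 34201454, plus strand) and Psmb9 (chromosome 17, 34181987 to 34187764, minus strand) lie close together in the MHC region. Psme1 (chromosome 14, 55578123 to 55581529, plus strand) and Psme2 (chromosome 14, 55587441 to 55591113, minus strand) lie close together on chromosome 14. Psmb10 (chromosome 8, 105935735 to 105938444, minus strand) is apart from both pairs. All positions are in the mm10 build, and genes between the members of a pair were not looked for. RefSeq promoter windows of GRCm38.p6, running from 250 bases before to 50 bases after a start, were found for 42 of the 50 genes (45 windows). They were searched on both strands for 4 short letter patterns, of which the palindromic TTCNNNGAA matches both strands at once. The core of the interferon-stimulated response element, searched as GAAA, any 2 bases and GAAA, occurred in 5 of the 45 windows (11.1%, against 3.44% of all 32851 windows), namely those of Psme1, Psmb3, Psmd4, Psmd9 and Psmg4. The pattern TTCNNNGAA, the core of the gamma-activated site, occurred in 3 (6.67%, against 8.30%), those of Psmb8, Psmd2 and Psmg1. The pattern TGACNNNGC, the core of the antioxidant response element, occurred in 6 (13.3%, against 12.4%), among them Psmb5 and Psmb6. A kappaB core, searched as GGGA, any 4 bases and CC, occurred in 11 (24.4%, against 20.7%). None of these 11 was in the immunoproteasome class, whose 6 windows are too few to show an absence. Printed here are the 30 bases around each match in the immunoproteasome class and in the constitutive catalytic genes, with the matched letters in capitals, and the stretches upstream of Psmb10 and Psme2 that lie in no annotated exon and held no match. The windows of Psmb8 and Psmb9 lie wholly inside longer annotated transcripts and are not printed. The Psme1 match lies after the start. A stretch of 111 bases upstream of Psme1 outside exons held no match and is not printed either. A match is a match of letters in this window only.
Psmb8, chr17:34198088-34198117, plus strand: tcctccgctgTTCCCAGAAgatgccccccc
Psme1, chr14:55578493-55578522, plus strand: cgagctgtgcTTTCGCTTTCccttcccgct
Psmb5, chr14:54618023-54618052, minus strand: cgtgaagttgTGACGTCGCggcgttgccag
Psmb6, chr11:70525338-70525367, plus strand: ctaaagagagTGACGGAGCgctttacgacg
Psmb10, chr8:105938445-105938642, minus strand: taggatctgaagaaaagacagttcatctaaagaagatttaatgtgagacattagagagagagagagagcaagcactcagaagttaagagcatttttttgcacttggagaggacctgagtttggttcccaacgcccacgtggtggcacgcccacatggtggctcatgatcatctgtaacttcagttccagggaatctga
Psme2, chr14:55591114-55591351, minus strand: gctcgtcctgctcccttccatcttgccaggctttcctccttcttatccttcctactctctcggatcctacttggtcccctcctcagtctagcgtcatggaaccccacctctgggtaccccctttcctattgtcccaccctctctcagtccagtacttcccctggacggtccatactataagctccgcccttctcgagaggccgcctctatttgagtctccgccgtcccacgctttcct

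Levels are given as CPM, the read count of a gene relative to the size of its library after TMM scaling, which centres most genes between libraries. Libraries held 14420402 to 23954552 counts. Mcu was at 7.34 ± 0.838 CPM (SD, n = 4) in WT untreated and 3.32 ± 0.691 CPM (n = 4) in Mcu-/- untreated BMDMs, and at 6.64 ± 0.448 CPM (n = 5) and 3.75 ± 0.200 CPM (n = 3) with zymosan. The fall was log2 -1.14 untreated and -0.82 with zymosan (edgeR adjusted p = 0.000163 and 9.61e-05), and the transcript was still detected in each Mcu-/- library. All 8 macrophage markers exceeded 1 CPM in every group. Summed T, NK, neutrophil, erythroid and mast cell markers stayed at or under 1.65 CPM in each library, dendritic cell markers at or under 12.0 CPM, and B cell markers at 12.4 to 55.4 CPM through 1 of 4 genes. The library Mcu-/- untreated replicate 4 stood apart: counts differed from its 3 partners with a chi-square per gene of 217 to 225, against 1.60 to 6.53 in the other 28 replicate pairs, and its macrophage markers summed to 8556 CPM against 13357 to 14777 CPM in the other untreated libraries. The biological coefficient of variation was 12.4% with it and 3.56% without it, so results are given both ways where they change. In bulk RNA, fewer cells of a type and less RNA per cell cannot be told apart.

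Of the 50 genes, 49 passed the filter on low counts and were tested among 11707 genes. Psmb11, the thymus subunit, had 1 count in 1 library and 0 in the other 19, which allows up to 3 counts in each of these. Psma8, the testis subunit, stayed between 0.499 and 1.58 CPM in the 20 libraries. Per kilobase of principal transcript, the genes of untreated WT BMDMs ran from Psma6 (214 CPM per kb), an alpha ring subunit, and Psme2 (186 CPM per kb) down to Psmf1 (6.06 CPM per kb), an inhibitor, Psmc3ip (2.71 CPM per kb) and Psma8 (0.536 CPM per kb), with Psmb11 at 0. By this measure, which depends on the transcript chosen, the inducible catalytic genes sat below their constitutive counterparts in this group. Psmb8 was at 69.8 against Psmb5 at 88.5 CPM per kb, Psmb9 at 27.2 against Psmb6 at 125 CPM per kb, and Psmb10 at 32.8 against Psmb7 at 73.8 CPM per kb.

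The first comparison asked what zymosan did in WT BMDMs. All 5 immunoproteasome genes rose, by 1.70-fold to 2.49-fold, and rose under each scaling tried. Across the family, edgeR's quasi-likelihood test called 36 of 49 genes higher, 6 lower and left 7 uncalled at an adjusted p of 0.05, where 69.1% of all genes were called, 32.4% higher and 36.8% lower. Without Mcu-/- untreated replicate 4, 39 were higher and 6 lower, where 78.5% of all genes were called, 37.2% higher and 41.3% lower. For the 31 standard subunits the direction depended on scaling: 27 were called higher with TMM (median log2 fold change 0.27) but 2 higher and 25 lower with plain library totals (median -0.23). That change of scaling moved the median of all genes from -0.04 to -0.54, and the immunoproteasome median from 0.84 to 0.34, so the immunoproteasome class stood 0.57 above the standard subunits on the log2 scale either way. For 41 of 49 genes no zymosan library fell in the untreated range (69.5% of all genes).

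**Figure D1:**
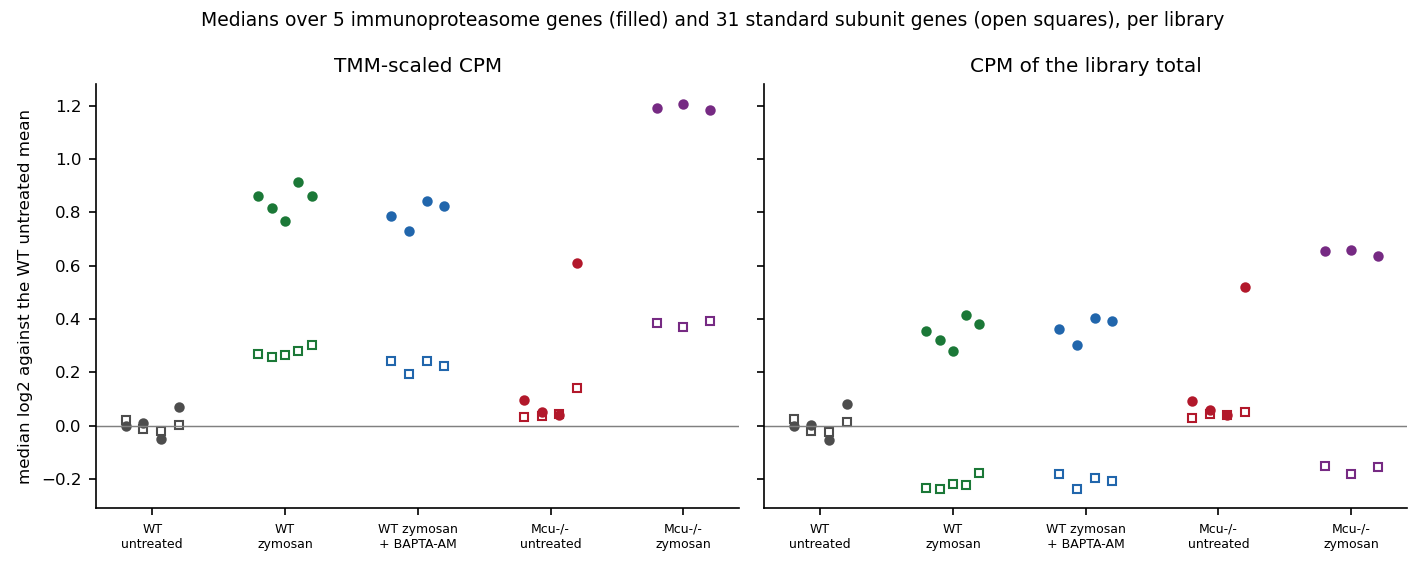
Median log2 level of the 5 immunoproteasome genes (filled circles) and the 31 standard subunit genes (open squares) in each of the 20 libraries, relative to the WT untreated mean, with TMM-scaled CPM on the left and CPM of the library total on the right. Zymosan libraries lie above 0 for both classes on the left, while on the right the standard subunits lie between -0.24 and -0.15 and the immunoproteasome genes between 0.28 and 0.66.

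Psmb8, the inducible chymotrypsin-like subunit, was at 113, 116, 111 and 114 CPM in the 4 untreated WT libraries and at 206, 198, 193, 211 and 206 CPM in the 5 zymosan libraries. The rise was log2 0.84 ± 0.12 (SE; adjusted p = 4.42e-06 in edgeR). Every zymosan library was above every untreated one. Psmb9, the inducible subunit built in where Psmb6 would be, read 37.1, 37.1, 34.4 and 38.6 CPM untreated and 77.1, 77.9, 77.0, 80.9 and 78.6 CPM with zymosan. It rose by log2 1.09 ± 0.06 (edgeR adjusted p = 2.81e-12), again with no overlap. Psmb10, the inducible trypsin-like subunit, showed the largest rise of the 49 genes, from 37.6, 46.0, 43.6 and 44.9 CPM to 112, 106, 101, 114 and 102 CPM. That rise was log2 1.31 ± 0.11 (edgeR adjusted p = 1.52e-09).

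Both PA28 genes rose as well. Psme1 went from 92.7, 93.4, 91.9 and 103 CPM to 169, 156, 153, 168 and 161 CPM, or up by log2 0.76 ± 0.09 (edgeR adjusted p = 1.86e-07). Psme2 went from 184, 173, 173 and 189 CPM to 326, 316, 297, 338 and 318 CPM, or up by log2 0.83 ± 0.07 (edgeR adjusted p = 2.19e-09). Neither gene had overlapping groups. Psme2b, a single-exon near copy of Psme2 on chromosome 11, rose from 9.96 ± 0.798 to 22.7 ± 2.43 CPM (log2 1.19 ± 0.08, edgeR adjusted p = 1.21e-10), though reads of near-identical copies may have been split between the genes in counting.

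**Figure D2:**
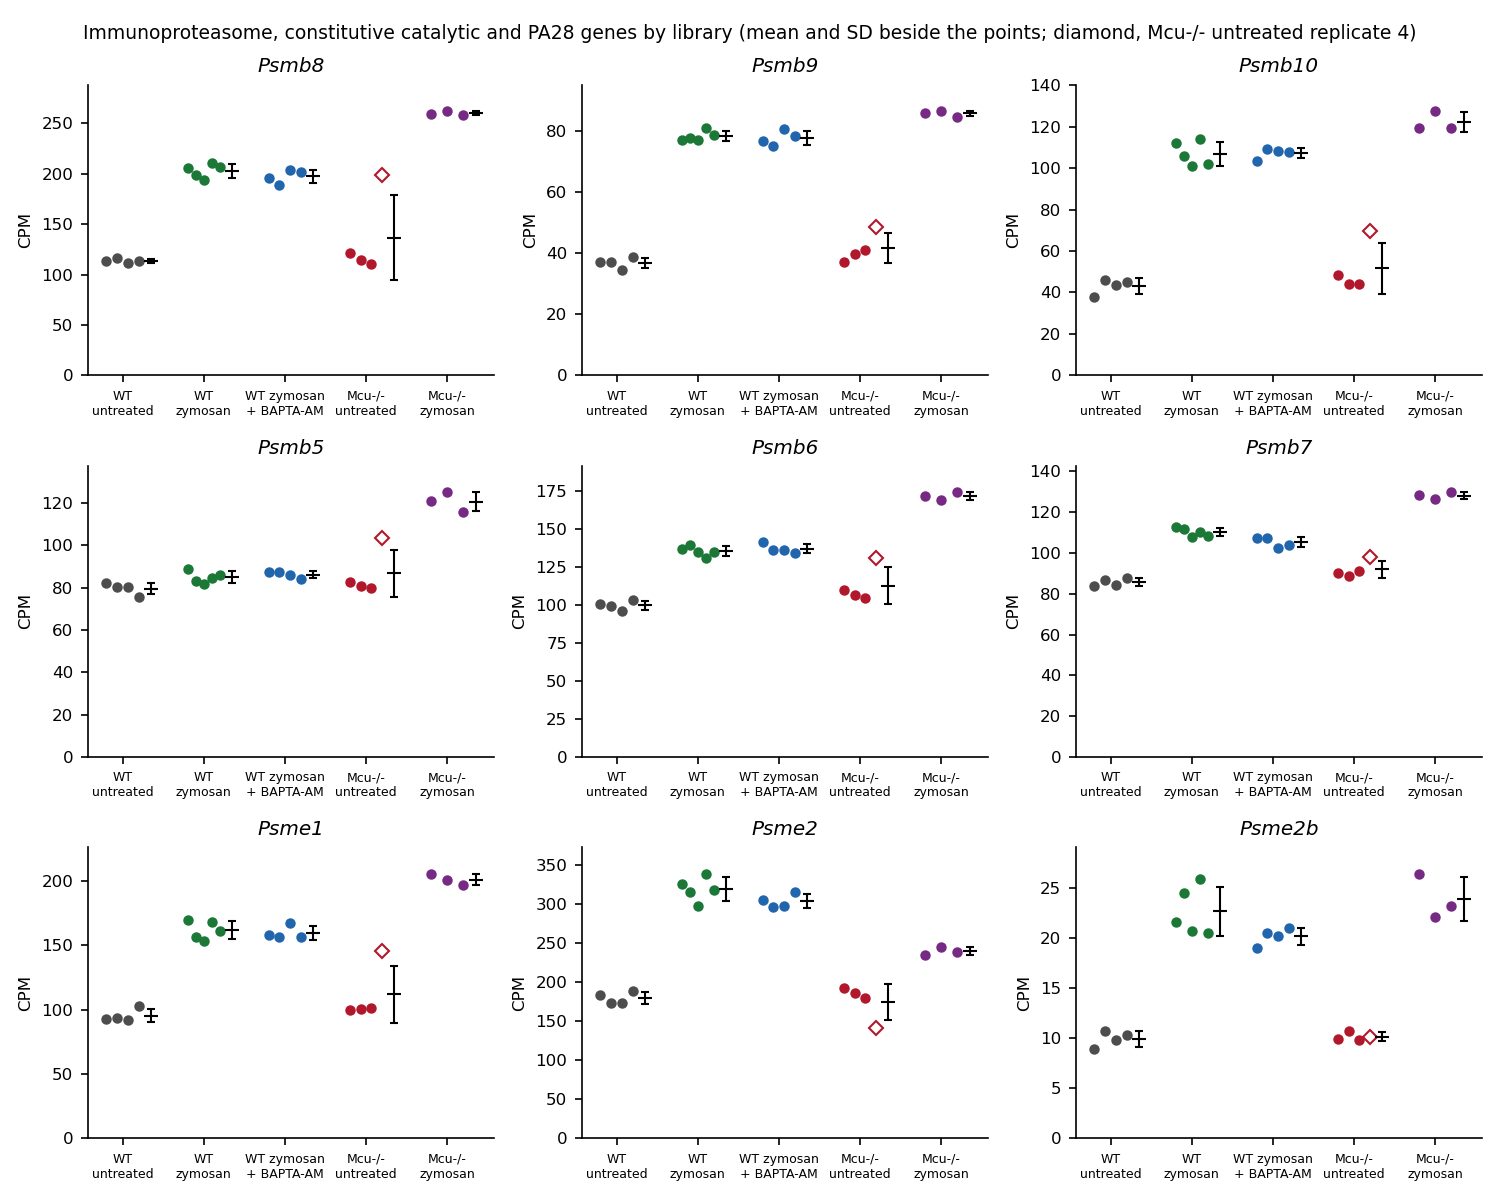
TMM-scaled CPM of 9 genes in each library of the 5 groups, with the mean and SD beside the points and Mcu-/- untreated replicate 4 as an open diamond; all axes start at 0. Psmb9, Psmb10, Psme1, Psme2 and Psme2b lie higher in all zymosan libraries than in all untreated ones, as does Psmb8 except for replicate 4 (199 CPM), Psmb5 overlaps between untreated and zymosan WT libraries, and Psme2 is the gene of the 9 with lower levels in Mcu-/- than in WT zymosan libraries.

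The constitutive catalytic genes moved less. Psmb5 was at 79.6 ± 2.67 CPM untreated and 85.0 ± 2.78 CPM with zymosan (log2 0.09 ± 0.06, edgeR adjusted p = 0.170, but 0.0477 with DESeq2 size factors and 0.0155 without Mcu-/- untreated replicate 4), Psmb6 rose to 135 from 99.7 CPM (log2 0.44 ± 0.05) and Psmb7 to 110.2 from 85.6 CPM (log2 0.36 ± 0.03), while with library totals the same 3 values were -0.40, -0.05 and -0.13. Ratios of 2 genes within a library do not depend on scaling, so the inducible gene was set against its counterpart in each library, with 9 such tests in all. The log2 ratio of Psmb8 to Psmb5 counts rose from 0.51 ± 0.06 (SD, n = 4) to 1.26 ± 0.04 (n = 5), a 1.67-fold change. That of Psmb9 to Psmb6 rose from -1.44 ± 0.03 to -0.79 ± 0.06, a 1.57-fold change, and that of Psmb10 to Psmb7 from -0.996 ± 0.107 to -0.04 ± 0.06, a 1.93-fold change. In each pair every zymosan library exceeded every untreated one, and the exact two-sided permutation p was 0.00794, the smallest that 4 against 5 libraries allow (adjusted p = 0.0238). Without any 1 of the 5 WT zymosan libraries the adjusted p was 0.0514 for each pair, and 4 against 4 libraries allow no smaller exact p than they gave (0.0286). Per kilobase, Psmb8 (125 CPM per kb) then stood above Psmb5 (94.5), whereas Psmb9 (57.9) and Psmb10 (81.6) were below Psmb6 (169.5) and Psmb7. The change of order for Psmb8 rests on the transcript lengths used (1628 bases, and 899 for Psmb5). Its counts already exceeded those of Psmb5 in untreated WT BMDMs (log2 ratio 0.51). The class as a whole took 10.2% ± 0.259 of the reads of the 50 genes in untreated and 14.6% ± 0.382 in zymosan-treated WT BMDMs.

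**Figure D3:**
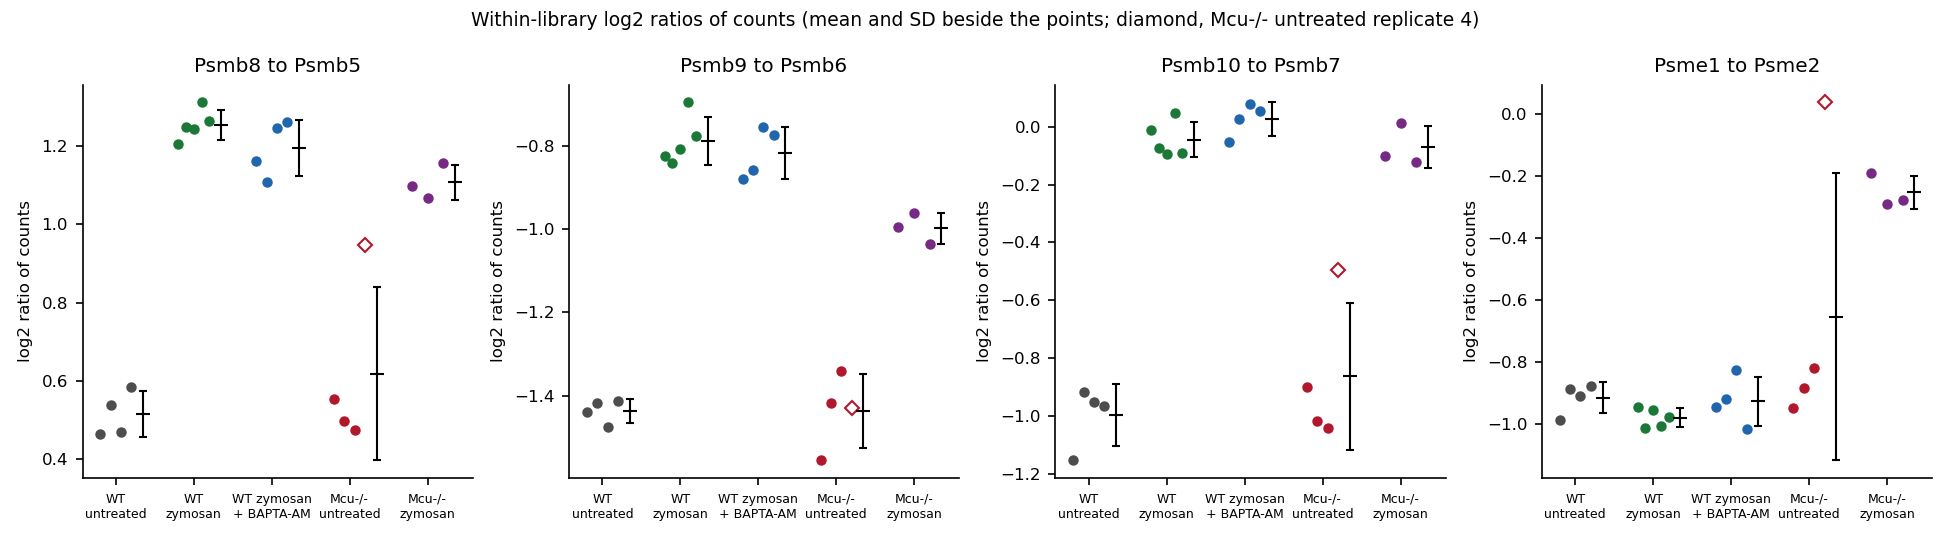
Within-library log2 ratios of counts for Psmb8 to Psmb5, Psmb9 to Psmb6, Psmb10 to Psmb7 and Psme1 to Psme2, by group, with mean and SD beside the points and Mcu-/- untreated replicate 4 as an open diamond. The first 3 ratios lie higher in every zymosan library than in every untreated library, and the last lies near -0.91 to -0.98 in the WT groups and at -0.25 on average in Mcu-/- zymosan libraries.

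Among the standard subunits Psmd8, a lid subunit that joins last in lid assembly, behaved like the inducible genes in size. It went from 126, 127, 119 and 120.1 CPM to 259.7, 254, 248, 251 and 246 CPM (log2 1.04 ± 0.12, edgeR adjusted p = 3.60e-07) and stayed higher with library totals (0.54). Psmd7, the lid partner of the deubiquitinase Psmd14, rose by log2 0.64 ± 0.05 and by 0.15 with library totals. The other 29 standard subunits ranged from -0.01 for Psma1 to 0.48 for Psmd11 with TMM, and all 29 were below 0 with library totals. The plot of fold changes by role shows the base ATPases packed between 0.14 and 0.25.

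Most of the assembly chaperones that carry a family symbol went the other way. Of the 7, 5 fell and 1 rose with TMM, and the 5 were lower still with library totals. Psmd5, a chaperone of the ATPase base, fell by 0.64 ± 0.08 on the log2 scale (40.2, 41.3, 40.7 and 39.3 CPM to 24.1, 24.7, 26.3, 28.3 and 25.7 CPM, edgeR adjusted p = 1.07e-06). Psmg3 and Psmg2, chaperones of the alpha ring, fell by 0.59 ± 0.09 and 0.47 ± 0.09. The groups of Psmg1 (-0.23) and Psmd9 (-0.18) overlapped, with edgeR adjusted p of 0.0250 and 0.0302. The Psmg1 call was lost with DESeq2 (adjusted p = 0.0606), with DESeq2 size factors, and without WT untreated replicate 1 (0.0552) or 4 (0.0874) or WT zymosan replicate 2 (0.0599) or 3 (0.0734). Psmd10, also called gankyrin, was the exception and rose by 0.66 ± 0.06, or 0.17 with library totals. Psmc3ip fell by 1.09 ± 0.25 from 3.50 ± 0.347 CPM. Of the remaining regulators, Psme4 (log2 0.48 ± 0.09) and Psme3 (0.30 ± 0.05), activators found in the nucleus, rose with TMM but not with library totals (-0.02 and -0.19), and Psmf1 was not called (-0.05 ± 0.09).

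**Figure D4:**
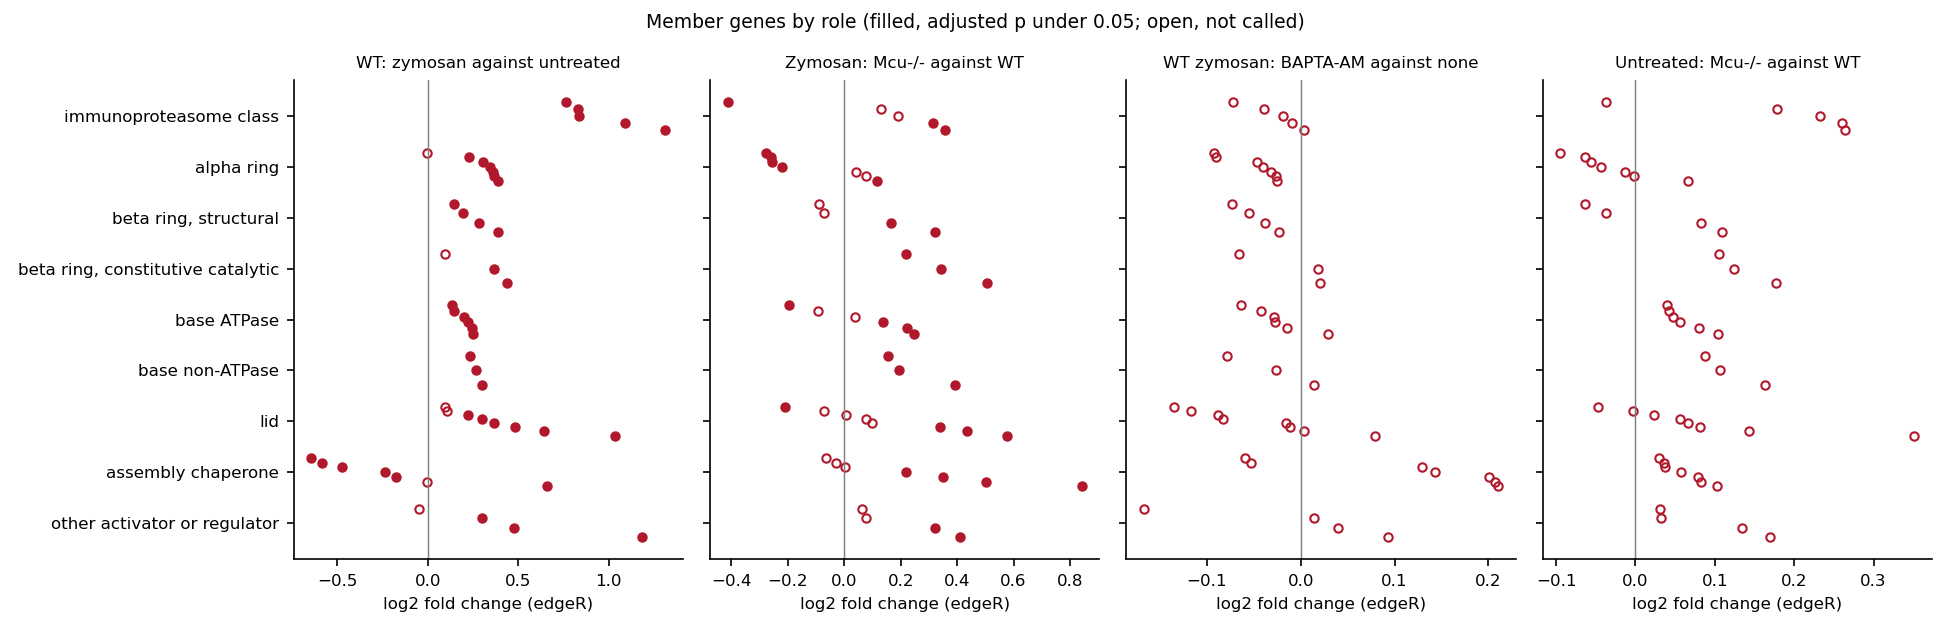
Log2 fold changes (edgeR, TMM) of the member genes by role in 4 comparisons, each panel with its own axis; filled points have an adjusted p under 0.05. Zymosan in WT moves the immunoproteasome class to between 0.76 and 1.31 and most chaperones below 0. Mcu-/- against WT with zymosan shows some alpha ring genes below 0 and the constitutive catalytic genes above 0. No gene is filled for BAPTA-AM or for untreated Mcu-/- BMDMs.

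The second comparison set Mcu-/- against WT BMDMs, both with zymosan. Loss of Mcu went with higher levels of all 3 constitutive catalytic genes and of 4 chaperones, and with lower levels of Psme2 and of 4 of 7 alpha ring genes. In all, 23 of 49 genes were higher and 7 lower (edgeR, adjusted p of 0.05), where 62.1% of all genes were called, 31.8% higher and 30.3% lower, and libraries did not overlap for 37 of 49 (64.0% of all genes). The 30 calls kept their sign with library totals, where 20 were called higher and 11 lower. The median log2 fold change of all genes was then -0.04 in place of 0.02. Without Mcu-/- untreated replicate 4 the counts were 28 and 10, where 70.1% of all genes were called, 36.4% higher and 33.7% lower. In these libraries 4 fibroblast markers summed to 44.0 to 52.2 CPM in Mcu-/- zymosan BMDMs and 28.3 CPM in Mcu-/- untreated replicate 4 against 1.02 to 6.53 CPM elsewhere (Dcn was at 0 in untreated WT), and macrophage markers to 10408 to 10767 CPM against 16080 to 16393 CPM in WT zymosan libraries. B cell markers summed to 12.4 to 13.3 CPM against 30.4 to 36.7 CPM. Their part in the differences was not tested. Long transcripts were also somewhat higher than short ones over all genes (medians 0.09 and -0.07 for the longest and the shortest tercile), with 0.13 and 0.08 for the proteasome genes in those terciles.

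Within the immunoproteasome class the genes parted. Psme2 fell, with 234, 245 and 239 CPM in Mcu-/- against 326, 316, 297, 338 and 318 CPM in WT libraries (log2 -0.41 ± 0.07, edgeR adjusted p = 0.000115), whereas its partner Psme1 rose to 205, 201 and 197 CPM (0.31 ± 0.09, edgeR adjusted p = 0.00602). No library of one genotype crossed into the range of the other for either gene. Psmb8 was at 259.5, 262 and 258 CPM and rose by 0.36 ± 0.13 (edgeR adjusted p = 0.0198), a call that was lost without the Mcu-/- zymosan library numbered 4 in the table (adjusted p = 0.0526). Psmb9 (0.13 ± 0.06, edgeR adjusted p = 0.0648) and Psmb10 (0.19 ± 0.11, adjusted p = 0.137) were not called with all libraries and were called without Mcu-/- untreated replicate 4 (adjusted p = 0.00334 and 0.000376), Psmb9 also without replicate 1 of that group. The log2 ratio of Psme1 to Psme2 counts, given as a description, was -0.91 ± 0.05, -0.98 ± 0.03 and -0.93 ± 0.08 in the 3 WT groups, -0.25 ± 0.05 in Mcu-/- zymosan BMDMs, -0.88 ± 0.06 in Mcu-/- untreated replicates 1 to 3 and 0.04 in replicate 4.

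Psmb5 rose most among the catalytic genes, to 121, 125 and 116 CPM from 89.1, 83.4, 81.7, 84.8 and 85.9 CPM (log2 0.51 ± 0.06, edgeR adjusted p = 3.83e-06), with Psmb6 at 0.34 ± 0.06 and Psmb7 at 0.22 ± 0.04. The inducible to constitutive ratios were lower in Mcu-/- BMDMs for 2 of 3 pairs. Psmb8 to Psmb5 was at 1.11 ± 0.05 (n = 3), a difference of -0.15 from WT on the log2 scale. Psmb9 to Psmb6 was at -0.998 ± 0.0375, a difference of -0.21 from WT, and for both the exact permutation p was 0.0179, the smallest that 3 against 5 libraries allow (adjusted p = 0.0321). With any 1 library left out the adjusted p was 0.0514 to 0.0857, again at the smallest exact p allowed. Psmb10 to Psmb7 was at -0.07 ± 0.07 and overlapped with WT (exact permutation p = 0.518).

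The 5 largest called rises were Psmd5, Psmd11, Psmb5, Psmg2 and Psmd8. Psmd5 was at 41.2, 51.2 and 46.5 CPM in Mcu-/- against 24.1 to 28.3 CPM in WT zymosan libraries (log2 0.84 ± 0.09, edgeR adjusted p = 4.50e-07), a range that reaches the 39.3 to 41.3 CPM of untreated WT BMDMs. Psmd11, a lid subunit, was at 181, 173 and 177 CPM against 124, 116, 116, 123 and 114 CPM (0.58 ± 0.07, edgeR adjusted p = 1.58e-06). Psmg2 rose by 0.50 ± 0.10 and Psmd8 by 0.44 ± 0.13. The largest falls after Psme2 were alpha ring genes: Psma3 (-0.28 ± 0.06, edgeR adjusted p = 0.000877), Psma6 (-0.26 ± 0.07), Psma5 (-0.26 ± 0.08) and Psma7 (-0.22 ± 0.07). Psma2 was higher (0.12 ± 0.04), and Psma4 (0.04) and Psma1 (0.08) were not called, so subunits of 1 ring differed in direction. Psme4 (0.41 ± 0.10) and Psmf1 (0.32 ± 0.10) were higher, and Psme3 (0.06), Psme2b (0.08), Psmc3ip (-0.62 ± 0.32) and Psma8 (0.46 ± 0.31) were not called.

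Untreated Mcu-/- and WT BMDMs were compared next. No member gene was called in either direction (0 of 49 in edgeR, and 0 in DESeq2), where 0.35% of all genes were called, 0.128% higher and 0.222% lower, and 11 genes had an unadjusted p under 0.05. Without replicate 4 the count was again 0, where 3.35% of all genes were called, 1.53% higher and 1.83% lower. Libraries did not overlap for 5 of 49 genes (7.09% of all genes). Psmd8 had the largest difference (log2 0.35 ± 0.13, edgeR adjusted p = 0.231), which was 0.10 without replicate 4. Psmb8 read 122, 114, 111 and 199 CPM, Psme1 99.9, 101, 101 and 145 CPM and Psme2 193, 186, 179 and 141 CPM in Mcu-/- replicates 1 to 4, and in each gene replicate 4 lay farthest from the WT libraries. Psmb9 (0.18), Psmb10 (0.26) and Psmb8 (0.26) stood at 0.10, 0.08 and 0.02 without it. That library was above the range of replicates 1 to 3 for 28 of the 50 genes, below for 12 and within for 10.

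Replicate 4 of the untreated Mcu-/- BMDMs departed from its partners along the same genes by which Mcu-/- and WT zymosan libraries differed. Over the 49 tested genes the log2 difference of replicate 4 from replicates 1 to 3 and the Mcu-/- against WT difference with zymosan, which share no library, had a Pearson's r of 0.82 and a Spearman's rho of 0.82, and 45 had the same sign. All 30 genes called with zymosan had that sign. Over all 11707 genes r was 0.75 and 78.4% shared the sign, so the relation was not particular to this family, and genes are not independent replicates. In replicate 4 Psmb8 (199 CPM) lay within the 193 to 211 CPM of the WT zymosan libraries, while Psme2b (10.1 CPM) lay within the 9.86 to 10.8 CPM of its partners.

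**Figure D5:**
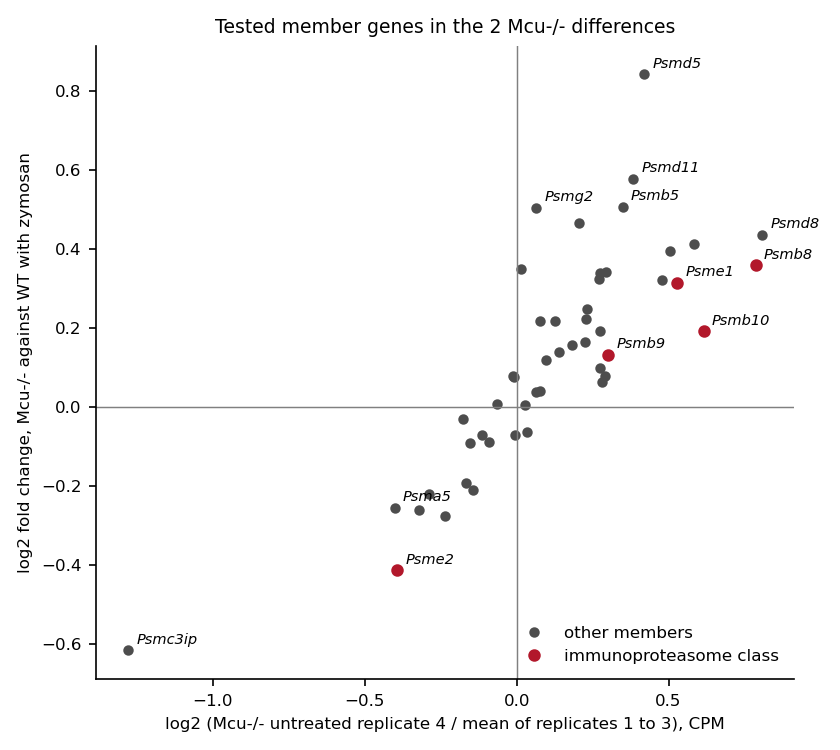
Each point is one of the 49 tested genes, with the log2 difference of Mcu-/- untreated replicate 4 from the mean of replicates 1 to 3 on the x axis and the log2 fold change of Mcu-/- against WT zymosan BMDMs on the y axis. The points rise from Psmc3ip at the lower left to Psmd8, Psmb8 and Psmd5 at the upper right, with Psme2 on the negative side of both axes.

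Within Mcu-/- BMDMs zymosan again raised all 5 immunoproteasome genes. In total 34 of 49 genes were higher and 4 lower (of all genes 73.8% were called, 34.3% higher and 39.4% lower, edgeR), libraries did not overlap for 40 of 49 (61.7% of all genes), and with library totals 10 were higher and 31 lower. Library totals also moved the median log2 fold change of all genes from -0.06 to -0.58, so these 31 falls are not particular to the family. Without replicate 4 the counts were 37 and 5, where 81.5% of all genes were called, 39.2% higher and 42.4% lower. Psmb10 rose by log2 1.24 ± 0.11, Psmb9 by 1.04 ± 0.06, Psmb8 by 0.93 ± 0.13 and Psme1 by 0.85 ± 0.10, and each stayed higher with library totals. Psme2 rose by 0.45 ± 0.08 with TMM and was at -0.07 with library totals. Psme2b (1.23 ± 0.09) and Psmd8 (1.12 ± 0.13) rose again, and Psmc3ip (-1.75 ± 0.31), Psmg3 (-0.68 ± 0.10), Psmg1 (-0.30 ± 0.10) and Psmd9 (-0.28 ± 0.08) fell under both scalings. Psmd5 and Psmg2, which fell in WT, were at 0.12 ± 0.09 and -0.01 ± 0.10 and not called. The 2 Mcu-/- groups also differed in cell type markers. Fibroblast markers summed to 44.0 to 52.2 CPM with zymosan and 1.02 to 28.3 CPM untreated, highest in replicate 4. B cell markers summed to 12.4 to 13.3 CPM with zymosan and 18.1 to 55.1 CPM untreated. Zymosan and whatever else sets these libraries apart cannot be told apart here.

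Whether the zymosan response itself differed between genotypes was tested as an interaction. It uses the same Mcu-/- libraries, so their difference in cell type markers enters it and cannot be told apart from the response. The response was higher in Mcu-/- than in WT BMDMs for 7 genes and lower for 3 (of all genes 35.2% were called, 15.2% higher and 20% lower, edgeR). Psmd5 (0.76 ± 0.12, edgeR adjusted p = 0.000179), Psmg2 (0.47 ± 0.13, adjusted p = 0.0119), Psmd11 (0.43 ± 0.10, adjusted p = 0.00220), Psmb5 (0.38 ± 0.09, adjusted p = 0.00362) and Psmd3 (0.27 ± 0.08, adjusted p = 0.0129) led the first set, with Psmd10 and Psmb3 after them. Psme2 (-0.38 ± 0.10, edgeR adjusted p = 0.00863), Psmc1, a base ATPase (-0.24 ± 0.06), and Psmd6, a lid subunit (-0.16 ± 0.06), made up the second, though Psmd6 was not called with DESeq2 (adjusted p = 0.0504) or in 4 other alternatives that kept all libraries, and was lost without any of 10 single libraries (adjusted p up to 0.0886). The same 10 genes were called with library totals. Psmb8 (0.09 ± 0.18), Psmb9 (-0.05 ± 0.08), Psmb10 (-0.07 ± 0.15) and Psme1 (0.08 ± 0.13) showed no called difference in response. Without replicate 4 the counts were 21 and 9 (of all genes 60.3% were called, 31% higher and 29.3% lower), and Psmb8 (0.34) and Psme1 (0.23) were then among the higher ones.

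BAPTA-AM was added to zymosan in WT BMDMs to clamp cytosolic Ca2+. Across the proteasome genes the groups were close: 0 of 49 were called by edgeR, where 12.8% of all genes were called, 6.43% higher and 6.33% lower, 10 had an unadjusted p under 0.05, and DESeq2 called 4 lower. Libraries did not overlap for 8 of 49 genes (24.3% of all genes). Psmb8 was at 196, 189, 204 and 201 CPM with BAPTA-AM, within 0.29 on the log2 scale of its zymosan level (95% interval -0.29 to 0.21). The intervals were -0.13 to 0.11 for Psmb9, -0.21 to 0.22 for Psmb10, -0.20 to 0.16 for Psme1 and -0.21 to 0.07 for Psme2. The inducible to constitutive ratios differed by -0.06, -0.03 and 0.07 with exact permutation p of 0.167, 0.508 and 0.127. Without Mcu-/- untreated replicate 4, 3 genes were higher (Psmd8, Psme4 and Psmg4) and 5 lower (Psma2, Psma6, Psmd1, Psmd3 and Psmd7), where 31.8% of all genes were called, 15.3% higher and 16.5% lower. The largest of these was Psmg4, a core chaperone (log2 0.21 ± 0.07).

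Other genes of the ubiquitin and antigen-processing pathway were read from a list of 65 tested genes. With zymosan in WT, 48 rose and 6 fell, where 32.4% of all genes were higher and 36.8% lower, with Ifnb1 (log2 10.68), Irf1 (5.39 ± 0.09) and Stat2 (3.66 ± 0.42) rising most and Ifngr1 (-1.10 ± 0.06), Ddi2 (-0.84 ± 0.07) and Pithd1 (-0.75 ± 0.07) falling most. Ifnb1, which encodes interferon beta, went from 0.0567 ± 0.0203 to 103 ± 9.12 CPM, and Ddi2 encodes the protease that activates the proteasome transcription factor Nfe2l1. Of 12 genes of antigen processing 10 rose and 0 fell, among them the peptide transporters Tap1 (3.17) and Tap2 (1.01) and the peptide loader Tapbp (2.39). Nlrc5, a transactivator of MHC class I genes, rose by 3.11 ± 0.26. Of 13 ubiquitin and ubiquitin-activation genes 12 rose, and of 8 regulators of proteasome genes 3 rose and 1 fell.

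In Mcu-/- against WT zymosan BMDMs 28 of the 65 were higher and 15 lower, close to the 62.1% of all genes called there (31.8% higher and 30.3% lower). Ifnb1 (log2 1.87 ± 0.11), Ifngr1 (1.24 ± 0.06) and Ube2l6 (1.21 ± 0.44), a conjugating enzyme of the ubiquitin-like protein Isg15, led the rises, and Ddi2 (-0.87 ± 0.08), Uba7 (-0.72 ± 0.07) and Nlrc5 (-0.64 ± 0.25) led the falls. The MHC class I genes H2-K1, H2-D1 and B2m of the list did not follow Nlrc5. Their means were 2288, 3624 and 4287 CPM in Mcu-/- against 1005, 1944 and 2464 CPM in WT zymosan BMDMs. Within Mcu-/- BMDMs 50 rose and 7 fell with zymosan (34.3% and 39.4% of all genes), with Ifnb1 (10.42), Irf1 (5.46) and Tap1 (2.65) rising most and Ddi2 (-1.78), Pithd1 (-1.16) and Ipo9 (-0.60) falling most. The response differed between genotypes for 23 genes, 11 upward and 12 downward (15.2% and 20% of all genes), led by Ifngr1 (1.31), Ngly1 (0.49) and Nploc4 (0.44) and by Nlrc5 (-1.29), Ddi2 (-0.95) and Uba7 (-0.63). With BAPTA-AM 3 were higher and 9 lower (6.43% and 6.33% of all genes), with Ifnb1 (-1.17 ± 0.11) and Jak2 (-0.43 ± 0.04) among those falling and Ifngr1 (0.59 ± 0.06), Ngly1 (0.25 ± 0.07) and Nfe2l2 (0.24 ± 0.08) rising. Ifnb1 was at 45.6 ± 8.62 CPM with BAPTA-AM against 103 CPM with zymosan alone, in the same libraries in which Psmb8, Psmb9 and Psmb10 were not called. Any relation between Ifnb1 and these 3 genes was not tested. Untreated Mcu-/- BMDMs gave 0 calls among the 65, where 0.35% of all genes were called. The counts, rankings and fold changes of this list are with all libraries, including Mcu-/- untreated replicate 4. Some of its genes spread widely in untreated Mcu-/- BMDMs. Nlrc5 was at 24.1 ± 14.4 CPM and Tap1 at 62.0 ± 44.1 CPM there, against 15.3 ± 0.973 and 38.4 ± 1.37 CPM in untreated WT. Others did not, such as Ngly1 at 21.2 ± 1.27 CPM. Values of such genes that use the untreated Mcu-/- group, and their ranks, may change without that library. Without Mcu-/- untreated replicate 4, more of all genes were called: 3.35% for untreated Mcu-/-, 31.8% for BAPTA-AM and 60.3% for the interaction.

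By pattern, the tested genes outside the family whose mean log2 CPM over the 5 groups lay nearest to that of Psmb9 were Isg20, Parp14, Grina, Rtp4 and Dld, with Pearson's r of 0.9995 to 0.9997 over the 5 group means. These values are a description of 5 points, which mainly separate zymosan from untreated groups.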

How the data were processed

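Bulk RNA-seq gene counts of 20 BMDM libraries in 5 groups were analysed. Per the study's methods the authors trimmed reads with cutadapt, checked them with FastQC and MultiQC, aligned them to mm10 with STAR and made the deposited counts per gene with HTSeq; versions and strand setting are not given in the sources used here, so overlapping and near-identical genes (Psme2 and Psme2b) are uncertain.

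Groups came from the labels. Genes passing edgeR's filterByExpr (11707) were fitted with all 20 libraries, 1 coefficient per group and TMM scaling, by the edgeR 4.0.16 quasi-likelihood test in R 4.3.3, with Benjamini-Hochberg adjustment over all tested genes and a threshold of 0.05; related genes were read from the same fit. The SE is the size of the log2 fold change divided by the square root of F. Log2 ratios used counts plus 1 and exact two-sided permutation tests (SciPy 1.17.1), adjusted over 9 tests. Alternatives were DESeq2 1.42.0, its size factors, library totals, other count filters, the compared groups alone, a replicate block and leaving out each library. The step was tested on simulated data for Mcu-/- against WT zymosan libraries, with 200 genes changed by log2 1 up or down. There edgeR recovered 197 of the 200 changed genes among 11490 with 6 false calls. The simulated spread was smaller than that of the real fit, and smaller changes were not simulated. Sensitivity in the fit of the real libraries, where the biological coefficient of variation was 12.4%, was not tested.

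Named genes were the immunoproteasome class, Psmb5 to Psmb7, the 5 largest called rises and falls per comparison, the members outside a standard proteasome, the 3 largest called rises and falls of the related list, the 5 genes nearest to Psmb9, and Mcu; standard subunits named beside a count were chosen after their values were seen. The result of 1 gene of the related list is not reported here. Members and lists were chosen with earlier results of these data known. Marker lists covered macrophages, T, B and NK cells, neutrophils, dendritic cells, fibroblasts, erythroid and mast cells. Lengths are those of the principal transcript (GENCODE M21). Library totals of 14420402 to 23954552 counts set the counting precision, and limits from a count of 0 cover counting error only. Where the labels name no animals, p-values measure the spread between these samples, which may be technical.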

Additional observations from a re-analysis of the deposited data

Results flagged for a closer look

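In 96 sets of 4 or 5 libraries (24 proteasome genes in 4 groups), 12 held a library set apart from the rest by Dixon's criterion at 95%, which chance reaches in about 1 of 20 sets. Of the 12, 6 were in untreated Mcu-/- BMDMs, and 5 of these were replicate 4: Psmb8 at 199 CPM, Psmd8 at 231 CPM, Psme1 at 145 CPM and Psmb5 at 103 CPM were highest, and Psma6 at 179.6 CPM was lowest. The sixth was Psmg2 in replicate 1 at 8.65 CPM, the lowest. Among WT libraries, Psma3 was highest in zymosan replicate 4 (239.8 CPM), Psmc3ip lowest in zymosan replicate 5 (0.887 CPM) and Psme1 highest in untreated replicate 4 (103 CPM). With BAPTA-AM, Psmd9 was lowest in replicate 3 (16.1 CPM), Psmg1 lowest in replicate 2 (8.51 CPM) and Psmg3 highest in replicate 4 (10.1 CPM).

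The zymosan response differed between genotypes by the interaction term of edgeR for 8 named genes. On the log2 scale, Mcu-/- minus WT, it was 0.76 for Psmd5, 0.47 for Psmg2, 0.43 for Psmd11, 0.38 for Psmb5, 0.27 for Psmd3, -0.38 for Psme2, -0.24 for Psmc1 and -0.16 for Psmd6. The cause was not tested.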

How the results depend on the processing

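With library totals in place of TMM, 9 proteasome genes were higher and 34 lower with zymosan in WT, 10 higher and 31 lower with zymosan in Mcu-/-, 11 lower in Mcu-/- against WT with zymosan, and 2 higher with BAPTA-AM. In the same order, the median log2 fold change of all genes with library totals was -0.54, -0.58, -0.04 and 0.06. The sign turned for Psmb5 (-0.40), Psmb6 (-0.0515) and Psmb7 (-0.13) with zymosan in WT, and for Psmb5 (-0.0418), Psmb7 (-0.0443) and Psme2 (-0.0733) in Mcu-/-. With only the compared groups fitted, 11 were lower in Mcu-/- against WT with zymosan, and 3 were higher and 4 lower with BAPTA-AM, where DESeq2 called 4 lower. Leaving out each library gave 35 to 39 higher and 4 to 6 lower for WT zymosan, 21 to 28 and 7 to 10 for Mcu-/- against WT with zymosan, 0 to 3 and 0 to 5 for BAPTA-AM, 34 to 37 and 4 to 5 for Mcu-/- zymosan, 5 to 21 and 2 to 9 for the interaction, and 0 and 0 for untreated Mcu-/-. The upper counts of 3, 5, 21 and 9 came without Mcu-/- untreated replicate 4, where the biological coefficient of variation was 3.56% in place of 12.4%. The log2 ratios kept sign and call with a pseudocount of 0.5. With each library left out they kept their sign, but adjusted over 9 tests the zymosan effect in WT held without each of the 4 untreated libraries (adjusted p = 0.0321) and not without each of the 5 zymosan libraries (0.0514), and no Mcu-/- against WT ratio held (0.0514 or more), where fewer libraries also raise the smallest possible p. Of 75 values of named genes, 68 kept sign and call with library totals and 71 to 75 under the other alternatives that kept all libraries.

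Replicate numbers did not pair the samples. The check and the block used the numbers in the table, which for Mcu-/- zymosan run from 3 to 5 while the titles run from 1 to 3. Over 33 same-numbered pairs, correlations of deviations ran from -0.05 to 0.06, and 4 of 20 libraries had their best partner under their own number. With a replicate block the counts were 36 higher and 6 lower for WT zymosan, 20 and 7 for Mcu-/- against WT with zymosan, 0 and 0 for BAPTA-AM and for untreated Mcu-/-, 33 and 4 for Mcu-/- zymosan, and 6 and 2 for the interaction. Depth limited Psma8 (9 to 35 counts a library), Psmc3ip and Mcu.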
